A study of Mus musculus with 15 samples.

Results

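Nobox, Lhx8, Figla, Sohlh1, Sohlh2, Tbpl2 and Taf4b encode 7 transcription factors that oocytes express, and their transcript levels were compared between mouse oocytes grown in the ovary and oocytes grown in follicle culture. The genes were taken by symbol, matched to their Ensembl identifiers with the GENCODE vM21 annotation, and make up 7 of the 55401 identifiers counted. Each library held the RNA of 6 pooled oocytes at the germinal vesicle stage from Kunming mice with no genetic change given. The series gives an age of 12 to 14 days, and no separate age for the mice behind the oocytes grown in vivo. IVV oocytes came from antral follicles grown in vivo. IVG oocytes came from preantral follicles cultured without neurotrophin-4 (NT-4, a growth factor that binds the receptor TRKB), and IVG-NT oocytes from follicles cultured with it at a single concentration. Both cultures were sampled at day 6 and at day 10, which gives 5 groups of 3 libraries and 15 libraries in all. The 3 libraries of a group came from 3 replicated experiments, but the libraries that share an experiment and the animals behind each pool are not named, so the p-values measure the spread between these pools.

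These factors are known for building and maintaining the oocyte transcript programme. SOHLH1 and SOHLH2 are germ cell basic helix-loop-helix (bHLH) proteins that act in the youngest follicles, upstream of the homeobox genes Lhx8 and Nobox, and FIGLA is a bHLH protein that pairs with an E protein and activates the zona pellucida genes. NOBOX carries oocytes past the primordial follicle and activates genes such as Gdf9 and Pou5f1. TBPL2, also called TRF3 or TBP2, is an oocyte form of the TATA-binding protein TBP that works with the general factor TFIIA during oocyte growth, and TAF4B is a gonadal form of TAF4, a subunit of the general factor TFIID.

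E-boxes, the CANNTG letters that bHLH factors can bind, lay in the promoter windows of 5 of the 6 genes for which a window was at hand. The windows run from 250 bases before the RefSeq start to 50 bases after it on GRCm38.p6, and 72.3% of all 32851 such windows hold a CANNTG. Of all windows, 20.2% hold CAGGTG on either strand, as do 4 of the 6, and 7.15% hold CACGTG, as does 1 of the 6, that of Sohlh1. The 4 windows printed are those of the genes whose levels the results turn on, together with that of Sohlh1 for its CACGTG, and capitals mark each CANNTG. They are those of Nobox (chr6:43309505-43309804, minus strand), Figla (chr6:86016941-86017240, plus strand), Sohlh1 (chr2:25847199-25847498, minus strand) and Tbpl2 (chr2:24096546-24096845, minus strand), each written 5′ to 3′ along the gene.
Nobox: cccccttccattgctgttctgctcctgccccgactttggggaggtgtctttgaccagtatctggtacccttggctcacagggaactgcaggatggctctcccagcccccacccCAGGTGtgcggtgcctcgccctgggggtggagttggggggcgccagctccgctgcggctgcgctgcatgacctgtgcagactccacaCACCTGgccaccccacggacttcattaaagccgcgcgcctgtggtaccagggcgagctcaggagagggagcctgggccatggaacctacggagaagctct
Figla: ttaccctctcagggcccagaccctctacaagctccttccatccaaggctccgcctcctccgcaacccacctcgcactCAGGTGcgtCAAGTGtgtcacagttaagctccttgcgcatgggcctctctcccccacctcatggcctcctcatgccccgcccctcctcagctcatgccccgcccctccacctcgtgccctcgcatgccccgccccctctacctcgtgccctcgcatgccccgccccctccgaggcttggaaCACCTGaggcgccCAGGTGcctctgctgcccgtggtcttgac
Sohlh1: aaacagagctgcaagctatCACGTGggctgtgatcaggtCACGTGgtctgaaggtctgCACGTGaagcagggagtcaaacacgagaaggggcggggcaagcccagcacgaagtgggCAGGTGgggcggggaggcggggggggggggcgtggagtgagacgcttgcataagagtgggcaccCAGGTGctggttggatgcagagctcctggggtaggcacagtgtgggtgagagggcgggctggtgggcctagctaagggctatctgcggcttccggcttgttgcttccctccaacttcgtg
Tbpl2: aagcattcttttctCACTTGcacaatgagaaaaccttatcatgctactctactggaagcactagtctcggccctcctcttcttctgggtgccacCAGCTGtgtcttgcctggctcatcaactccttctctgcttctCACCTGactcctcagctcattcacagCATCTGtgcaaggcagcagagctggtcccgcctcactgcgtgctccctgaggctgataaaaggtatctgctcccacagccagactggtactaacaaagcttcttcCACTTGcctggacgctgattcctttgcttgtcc
The Nobox window holds a CAGGTG and a CACCTG, which are the same letters on opposite strands, at positions -137 and -50 from the start. The 3 copies of CACGTG in the Sohlh1 window lie at -231, -211 and -192. Neither TATAAA, found in 13.6% of all windows, nor the homeobox letters TAATTG (8.0%) and TAATTA (5.29%) occurred in the windows of the 6 genes on either strand. The RefSeq start of Figla lies 1020 bases from the start of the GENCODE gene, and that of Lhx8 99 bases.

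All 7 genes are protein-coding and lie on 4 chromosomes in GENCODE vM21 (GRCm38). Nobox (ENSMUSG00000029736) is at chr6:43303674-43309554 and Figla (ENSMUSG00000030001) at chr6:86016171-86020996. Lhx8 (ENSMUSG00000096225) is at chr3:154306294-154330659 and Sohlh2 (ENSMUSG00000027794) at chr3:55182028-55209957. Sohlh1 (ENSMUSG00000059625) is at chr2:25842995-25847248, Tbpl2 (ENSMUSG00000061809) at chr2:24071721-24096595 and Taf4b (ENSMUSG00000054321) at chr18:14783245-14900359. Taf4b alone overlaps another annotated gene, the pseudogene AC133172.1 on the same strand, with which it shares 0 exon bases and which had 21 counts in the 15 libraries together.

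The libraries differed in a way that the groups do not name. Total counts were 5954262 and 7125348 in IVG-NT day 6 replicates 1 and 2, the shallow libraries, and 19033272 to 55593251 in the other 13. The rRNA gene CT010467.1 took 12.51% to 37.9% of the counts in 9 libraries, here called rRNA-rich (replicates 1 and 2 of every cultured group, and IVV replicate 3), and 0.187% to 0.714% in the other 6, here called rRNA-poor. Spearman correlations between libraries of a group were 0.765 to 0.963, except in IVG-NT day 6, where they were 0.507 to 0.537. The 14 oocyte markers listed, such as Gdf9, Bmp15 and Zp1, had counts in all 15 libraries, with a summed level of 8272 to 22412. Levels are given as normalized FPKM throughout, that is, counts per kilobase of exon, scaled to library size with edgeR's TMM normalization, and differences as log2 fold changes from edgeR's quasi-likelihood fit.

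Nobox held the largest median share of the summed level of the 7 genes. It made up 44.1% to 82.3% of it per library (median 66.4%), followed by Lhx8 with a median of 18.5% and Figla with 7.50%. Tbpl2 (1.68%), Sohlh2 (0.849%) and Taf4b (0.847%) were minor parts, and the median for Sohlh1 was 0. The plot of levels by library shows this spread of levels and the libraries that depart from their group.

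**Figure D1:**
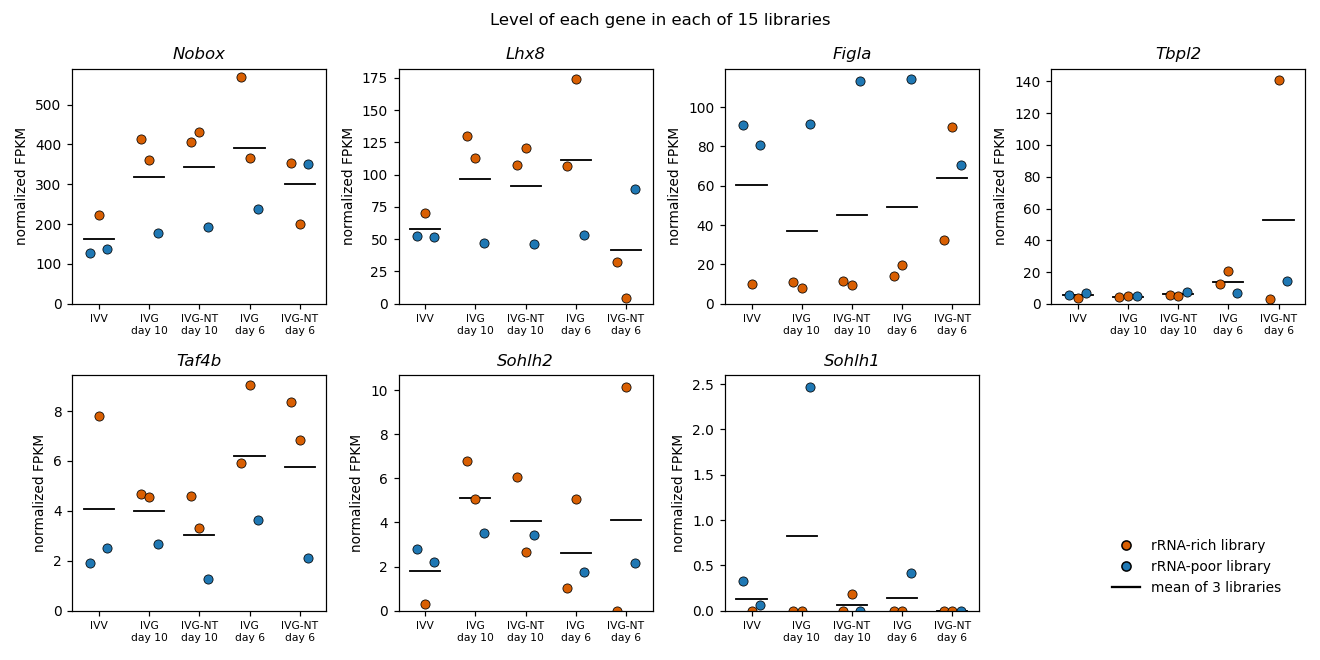
Normalized FPKM of the 7 genes (y axis, linear, with its own range in each panel) in each of the 15 libraries, 1 panel per gene, with the 5 groups along the x axis, a line at each mean of 3 libraries and orange points for rRNA-rich and blue points for rRNA-poor libraries. Nobox sits between 127 and 568 in every library, Figla is split mostly by the kind of library, and Tbpl2 reaches 141 in 1 IVG-NT day 6 library.

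Nobox was lowest in IVV oocytes and higher in all 4 cultured groups, by a margin that did not meet the call rule in the fit of groups over all 15 libraries. Its level was 127, 222 and 137 in IVV replicates 2, 3 and 4. In IVG oocytes it was 413, 362 and 177 at day 10 and 568, 366 and 239 at day 6. In IVG-NT oocytes it was 405, 430.0 and 193 at day 10 and 353, 199 and 351 at day 6. All 3 IVG day 6 libraries lay above the 3 IVV libraries, groups that did not overlap for 11.7% of the genes tested, and the other 3 cultured groups overlapped IVV at the rRNA-rich IVV library. Group means ± SD (n = 3) ran from 162 ± 52.0 in IVV through 301 ± 88.1 in IVG-NT day 6, 317 ± 124 (IVG) and 343 ± 130.1 (IVG-NT) at day 10 to 391 ± 166 in IVG day 6, and the libraries of each neighbouring pair in this order overlapped.

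The log2 fold change of Nobox against IVV was 0.97 (SE 0.58) in IVG and 1.08 (SE 0.58) in IVG-NT oocytes at day 10, with an adjusted p of 1 for both in edgeR's quasi-likelihood test. Both day 6 groups together differed from IVV by 1.08 (SE 0.52, adjusted p = 0.646), and the two-sided exact permutation test of the 6 day 6 against the 3 IVV libraries gave a difference of 1.06 with p = 0.0476, 1 of 42 such tests over the 7 genes. Nobox was itself higher in rRNA-rich libraries, by 0.69 with the groups allowed for (SE 0.25, edgeR adjusted p = 0.0551). IVV has fewer such libraries than each cultured group, so the differences without the covariate mix kind of library with culture. With library kind as a covariate, the day 10 changes against IVV were 0.71 in IVG and 0.82 in IVG-NT oocytes. Within a kind of library the direction was mostly the same. Of the rRNA-poor libraries, the 4 cultured ones stood at 177 to 351 and the 2 IVV ones at 127 and 137, and of the rRNA-rich ones 7 of 8 lay above the single IVV library. With library kind as a covariate, the day 6 difference was 0.91 (adjusted p = 0.376), short of the log2 change of 1 that a call needs here beside an unadjusted P under 0.05. The difference was 1.22 when IVG-NT day 6 replicates 1 and 2 were also left out, which leaves that group 1 library. That setting was added after the data had been seen. In all, the day 6 difference was called in 7 of 18 other settings, at 1.14 to 1.35. It stood at 0.70 to 1.10 in the other 11. The 7 included DESeq2's test and each fit without IVV replicate 3, IVG-NT day 6 replicate 2 or IVG day 6 replicate 3. Of all genes, 7.9% were called there in the fit of groups and 9.02% with the covariate. Shares for the other settings are not given, so these calls are not read as a result about Nobox. Day 10 and day 6 did not differ detectably, with a log2 fold change of -0.06 (SE 0.40).

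Lhx8, the second homeobox gene, which has a LIM domain pair and is needed as oocytes first form follicles, followed Nobox in most libraries and left it in 2. Its level was 52.3, 70.2 and 52.0 in IVV, 130, 113 and 46.8 in IVG day 10 and 107, 121 and 46.6 in IVG-NT day 10. At day 6 it was 107, 174 and 53.2 in IVG and 32.5, 4.81 and 88.5 in IVG-NT oocytes. The lowest of these, IVG-NT day 6 replicate 2, rested on 70 counts in one of the shallow libraries. Its order by mean was IVG-NT day 6 (42.0 ± 42.6), IVV (58.2 ± 10.4), IVG-NT day 10 (91.6 ± 39.5), IVG day 10 (96.5 ± 43.9) and IVG day 6 (111 ± 60.3), with every neighbouring pair overlapping. The log2 fold change between IVG-NT and IVG at day 6 was -1.40 (SE 0.83, adjusted p = 0.503). Among rRNA-rich libraries only it was -3.00 (adjusted p = 0.138), which met the call rule in a fit whose share over all genes is not given. Nobox was 2.11 to 5.33 times Lhx8 in 13 libraries, and 10.9 and 41.4 times in IVG-NT day 6 replicates 1 and 2.

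Figla, the bHLH activator of the zona genes, differed between kinds of library by more than in any comparison of groups. Its level was 90.8, 10.3 and 80.7 in IVV replicates 2, 3 and 4. At day 10 it was 10.98, 8.003 and 91.3 in IVG and 11.7, 9.75 and 113 in IVG-NT oocytes, and at day 6 it was 14.0, 19.8 and 114 in IVG and 32.2, 89.9 and 70.3 in IVG-NT oocytes. The 6 rRNA-poor libraries (93.5 ± 17.5, SD) were high in every group, and 8 of the 9 rRNA-rich ones lay between 8.003 and 32.2, the exception being IVG-NT day 6 replicate 2. With the groups allowed for, Figla was lower in rRNA-rich libraries by a log2 fold change of -2.72 (SE 0.48, edgeR adjusted p = 0.00128). Such a split was common, since 35.1% of the 21009 genes tested passed the call rule between the kinds and 23.7% had an adjusted p under 0.05. The means by group ran from 36.8 ± 47.3 for IVG and 44.9 ± 59.2 for IVG-NT at day 10 through 49.4 ± 56.3 in IVG day 6 and 60.6 ± 43.9 in IVV to 64.2 ± 29.4 in IVG-NT day 6, and neighbours overlapped.

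Among rRNA-rich libraries, Figla stood at 8.003 to 11.7 in the 4 day 10 libraries, 10.3 in the IVV library and 14.0 to 89.9 in the 4 day 6 libraries, so the 2 days did not overlap there, as for 13.4% of the genes tested. Among rRNA-poor libraries they did, at 91.3 and 113 for day 10 and 70.3 and 114 for day 6. Over all libraries the log2 fold change of day 10 against day 6 was -0.47 (SE 0.85), and with library kind as a covariate it was -1.21 (adjusted p = 0.289), a call made for 13.6% of genes in that fit and lost at -0.10 when IVG-NT day 6 replicates 1 and 2 were left out as well. The ratio of Nobox to Figla shows the split most plainly, as the plot of both genes does. It was 1.40 to 4.99 in rRNA-poor and 10.97 to 45.2 in 8 rRNA-rich libraries, with 2.22 in IVG-NT day 6 replicate 2.

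**Figure D2:**
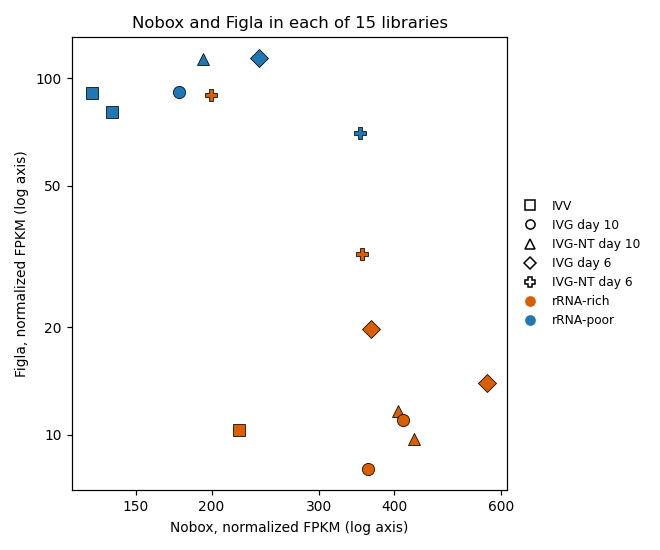
Normalized FPKM of Figla (y axis, log scale) against that of Nobox (x axis, log scale) in the 15 libraries, with symbols for the groups and orange for rRNA-rich and blue for rRNA-poor libraries. The 6 rRNA-poor libraries lie at a Figla level of 70.3 to 114, and 8 of the 9 rRNA-rich ones at 8.003 to 32.2.

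Sohlh1 and Sohlh2, the bHLH pair of the youngest follicles, were low in these oocytes. Sohlh1 had counts in 5 of 15 libraries, namely 20 and 4 counts in IVV replicates 2 and 4, 181 in IVG day 10 replicate 3, 7 in IVG-NT day 10 replicate 2 and 36 in IVG day 6 replicate 3. Of these 5 libraries 4 are rRNA-poor, and the level behind the 181 counts was 2.47. A library with 0 counts allows up to 3 counts, a level of 0.0379 to 0.421 across the 10 libraries at 0, which covers counting error only. No fold change is given for Sohlh1, because 10 of the 15 libraries were at 0.

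Sohlh2 was measured at 0 to 10.2. Its level was 2.81, 0.308 and 2.23 in IVV, 6.77, 5.05 and 3.54 in IVG day 10 and 6.08, 2.68 and 3.43 in IVG-NT day 10. At day 6 it was 1.04, 5.05 and 1.75 in IVG and 0, 10.2 and 2.14 in IVG-NT oocytes. The 3 IVG day 10 libraries all lay above the 3 IVV libraries, with an exact two-sided permutation p of 0.1, the smallest that 3 against 3 allows. These groups were separate in either direction for 11.9% of the genes tested. In the fit the log2 fold change was 1.52 (SE 1.45, adjusted p = 1), and IVG-NT day 10, which overlapped IVV, stood at 1.19 (SE 1.44). Means ran from 1.78 ± 1.31 in IVV through 2.61 ± 2.14 in IVG day 6, 4.06 ± 1.79 in IVG-NT day 10 and 4.10 ± 5.35 in IVG-NT day 6 to 5.12 ± 1.62 in IVG day 10, with neighbours overlapping.

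Tbpl2, the oocyte form of the TATA-binding protein, was the gene of the 7 that passed the call rule in the main comparisons. Its level was 5.85, 3.65 and 7.02 in IVV, 4.17, 4.82 and 4.61 in IVG day 10 and 5.85, 4.88 and 7.60 in IVG-NT day 10. At day 6 it was 12.6, 20.9 and 7.03 in IVG and 3.01, 141 and 14.4 in IVG-NT oocytes. The value of 141 rests on 1119 counts and the 3.01 on 23 counts, both in the shallow IVG-NT day 6 libraries. All 3 IVG day 6 libraries lay above all 3 IVG day 10 libraries, groups that did not overlap for 7.42% of the genes tested, and above all 3 IVV libraries (11.7%), there by 7.030 over 7.016 at the closest. By contrast, IVG-NT day 6 ran from below to far above every other group.

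The log2 fold change of Tbpl2 at day 10 against day 6 was -2.34 (SE 0.78, adjusted p = 0.337), a call made lower for 4.93% and in either direction for 10.4% of all genes tested. Day 6 exceeded IVV by 2.28 (SE 1.03, adjusted p = 0.611), where 1.56% of genes were called higher and 7.9% in either direction. DESeq2's Wald test gave the change between the days as -2.57 with an adjusted p of 0.0247, a level that 2.06% of genes reached there. Without IVG-NT day 6 replicate 2, the changes were -1.08 and 0.97 and neither was called, the first because its unadjusted P was not under 0.05. Without replicates 1 and 2 of that group, which leaves it 1 library, they were -1.44 and 1.34. Under the replicate block they were -1.80 and 2.41, and neither was called. The exact permutation test over 6 against 6 libraries gave a difference of -1.52 with p = 0.0476. The second call was also lost with library kind as a covariate (2.06, in a fit that called 9.02% of genes), with rRNA-rich libraries only, without the filter on low counts, in a fit of the compared groups alone, and without any single IVV library or IVG day 6 replicate 1 or 2, at 2.01 to 3.27. The means ran from high to low in the order IVG-NT day 6 (52.9 ± 76.7), IVG day 6 (13.5 ± 7.002), IVG-NT day 10 (6.11 ± 1.37), IVV (5.50 ± 1.71) and IVG day 10 (4.53 ± 0.329), each overlapping the next.

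The genes of the TBP family and of TFIIA, the general factor that works with TBPL2, moved unequally between the days. Of 5 genes of the TBP family and TFIIA tested (Tbp, Tbpl1, Gtf2a1, Gtf2a1l and Gtf2a2), 1 was called higher and 1 lower at day 10, where 10.4% of all genes were called. The median log2 fold change of the list was 0.69, against 0.21 over all genes. Gtf2a1l, the germ cell form of the large TFIIA subunit, fell by 1.03 on the log2 scale (SE 0.43, adjusted p = 0.401). Its level was 108, 138 and 58.7 in IVG and 63.6, 95.3 and 70.2 in IVG-NT oocytes at day 6, and 50.9, 37.8 and 34.5 in IVG and 57.9, 43.0 and 35.4 in IVG-NT oocytes at day 10. Every day 6 library was above every day 10 library, sets that were separate in either direction for 0.771% of the genes tested. The day 6 libraries were also above the IVV libraries at 51.3, 23.3 and 38.3, where 3.81% did not overlap. Against IVV the day 6 groups were higher by 1.22 (SE 0.55, adjusted p = 0.600). The change between the days stayed called in 13 of 21 other settings and that against IVV in 11 of 18, always in the same direction.

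Gtf2a1, the form of that subunit found across tissues, changed the other way, with a log2 fold change of 1.51 at day 10 against day 6 (SE 0.57, adjusted p = 0.366). Its level was 32.2, 27.6 and 12.8 in IVG and 7.09, 4.15 and 14.9 in IVG-NT oocytes at day 6, and 75.5, 54.6 and 14.4 in IVG and 45.6, 50.1 and 11.7 in IVG-NT oocytes at day 10. The days overlapped in the rRNA-poor libraries, and the change was not called without IVG-NT day 6 replicates 1 and 2 (1.07) or without IVG day 10 replicate 1 (1.24). The ratio of Gtf2a1l to Gtf2a1, a pair chosen after their values had been seen, was 3.34 to 22.9 at day 6 and 0.675 to 3.02 at day 10, with no overlap. In IVV it was 4.32 and 3.44 in the rRNA-poor libraries and 0.663 in the rRNA-rich one. Tbp itself stood at 0.564 to 7.41 across all libraries and its change between the days was 0.69 (SE 0.56, adjusted p = 0.770). The ratio of Tbpl2 to Tbp was 250.4 in the shallow IVG-NT day 6 replicate 2 and 1.36 to 4.50 in the other day 6 libraries. At day 10 it was 0.599 to 1.79, so the days overlapped.

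**Figure D3:**
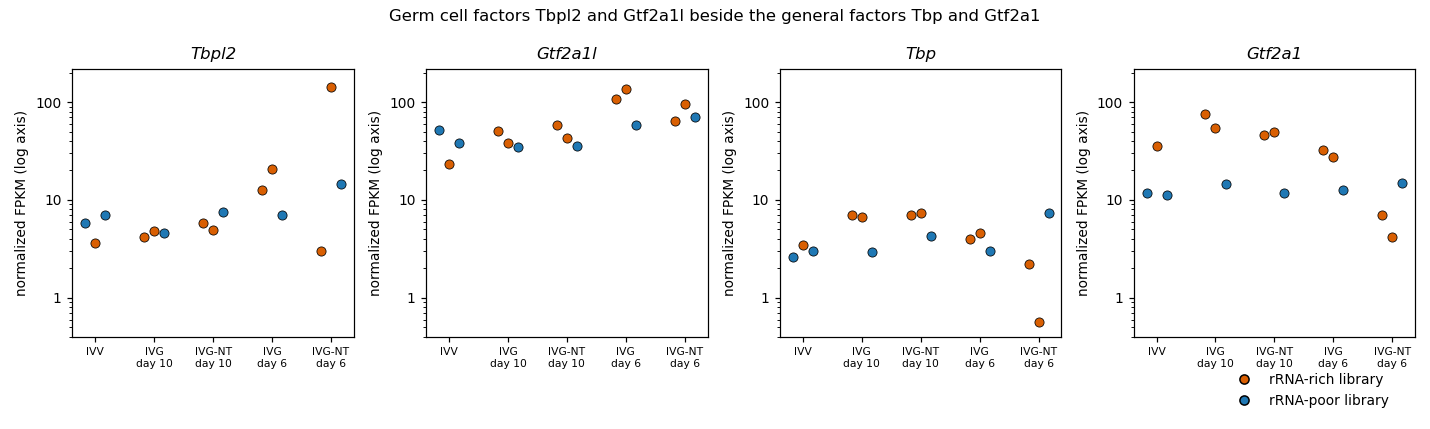
Normalized FPKM (y axis, log scale) of Tbpl2, Gtf2a1l, Tbp and Gtf2a1 in each library, by group on the x axis, with orange points for rRNA-rich and blue points for rRNA-poor libraries. The 6 day 6 libraries of Gtf2a1l (58.7 to 138) lie above the 6 day 10 libraries (34.5 to 57.9), and Tbpl2 of IVG-NT day 6 runs from 3.01 to 141.

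Markers of granulosa cells were called between the culture days as well, none with an adjusted p under 0.05. Of the 13 granulosa cell markers tested, 5 were called higher at day 10 than at day 6 and 1, Wt1, lower. In that comparison 10.4% of all genes were called in either direction. Another 7 calls were lower at day 6 than in IVV, also with no adjusted p under 0.05, where 7.9% of all genes were called in either direction. Their summed level was 69.6 to 122 in IVV, 22.7 to 128 in IVG and 38.4 to 85.8 in IVG-NT oocytes at day 10, and 12.48 to 61.3 in IVG and 11.8 to 34.4 in IVG-NT oocytes at day 6. Amh was at 0 in all day 10 and IVG-NT day 6 libraries, Wt1 in IVG day 10, and Amhr2 and Fst in IVG-NT day 6. The theca and stroma markers summed to 0.0700 to 10.1 over all libraries, of which Cyp17a1 was at 0 in all day 6 libraries. Fewer granulosa cells and less RNA per such cell cannot be told apart in these pools, and the part of either in the values of Tbpl2 and Gtf2a1l was not tested.

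Taf4b, the gonadal TFIID subunit, was low and followed the kind of library. Its level was 1.93, 7.80 and 2.52 in IVV, 4.70, 4.58 and 2.66 in IVG day 10 and 4.58, 3.31 and 1.26 in IVG-NT day 10. At day 6 it was 5.91, 9.04 and 3.65 in IVG and 8.35, 6.83 and 2.10 in IVG-NT oocytes. The rRNA-rich libraries (3.31 to 9.04) were higher than the rRNA-poor ones (1.26 to 3.65) by a log2 fold change of 1.42 with groups allowed for (SE 0.43, edgeR adjusted p = 0.0272), and the kinds overlapped. Within the rRNA-rich libraries all 4 at day 6 (5.91 to 9.04) lay above all 4 at day 10 (3.31 to 4.70), sets that did not overlap for 13.4% of genes. Over all libraries the log2 fold change of day 10 against day 6 was -0.78 (SE 0.63, adjusted p = 0.768). Group means were 3.05 ± 1.68 in IVG-NT day 10, 3.98 ± 1.14 in IVG day 10, 4.08 ± 3.23 in IVV, 5.76 ± 3.26 in IVG-NT day 6 and 6.197 ± 2.71 in IVG day 6, with neighbours overlapping.

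Among the other TFIID subunits, 14 of 15 passed the filter and none was called between the days or against IVV. Between IVG-NT and IVG at day 6, where 11.6% of all genes were called, Taf9 and Taf13 were higher with log2 fold changes of 3.40 (adjusted p = 0.393) and 1.70 (adjusted p = 0.422) and Taf4, the paralogue of Taf4b, was lower with -1.66 (adjusted p = 0.406). All 3 calls were lost without IVG-NT day 6 replicate 2, at 0.90, 0.96 and -1.42. That setting included, the call of Taf4 was lost in 10 other settings and those of Taf9 and Taf13 in 7 each. Taf4 stood at 1.92 and 2.90 in IVG-NT day 6 replicates 1 and 2 and at 6.58 to 17.5 in the other 13 libraries, so the ratio of Taf4b to Taf4 was 4.36 and 2.35 in those libraries and 0.164 to 0.575 in the others.

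None of the 7 genes was called for NT-4 at either day, or at day 10 against IVV. The plot of log2 fold changes gives each with its standard error. At day 10, where 1.24% of all genes were called between IVG-NT and IVG, the changes of the 6 genes other than Sohlh1 ran from -0.38 (SE 0.89) for Taf4b to 0.43 (SE 1.06) for Tbpl2. The 3 IVG-NT libraries of Tbpl2 nevertheless all lay above the 3 IVG libraries, with the smallest exact permutation p of 0.1. These groups were separate in either direction for 3.59% of genes. At day 6 the changes ran from -1.40 for Lhx8 to 1.97 for Tbpl2 (SE 1.09, adjusted p = 0.481). The latter was called with DESeq2's test or size factors, at 2.46, and was -0.55 without IVG-NT replicate 2. Against IVV at day 10, where 2.76% (IVG) and 3.29% (IVG-NT) of genes were called, the changes ran from -0.72 (SE 1.21) for Figla to 1.52 for Sohlh2 in IVG and from -0.43 (SE 1.21) for Figla to 1.19 for Sohlh2 in IVG-NT oocytes.

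**Figure D4:**
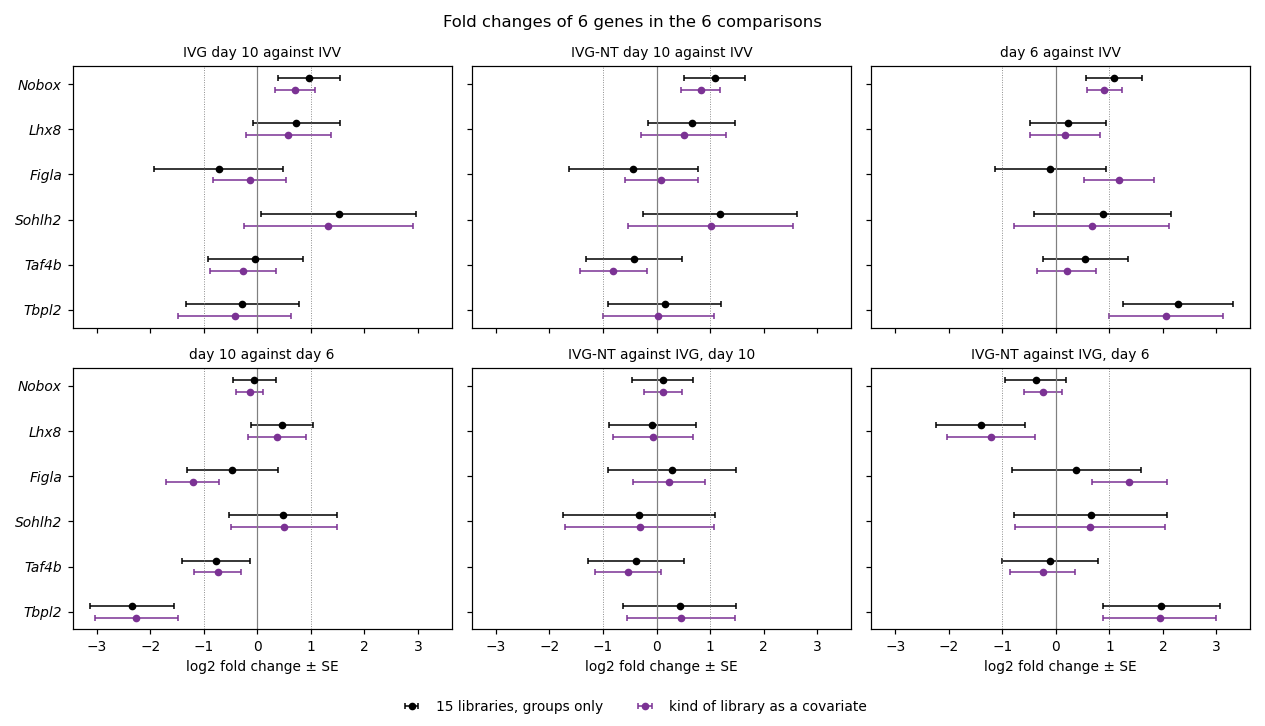
Log2 fold changes of 6 genes (Sohlh1 left out, as most of its libraries are at 0) in the 6 comparisons, with points at the edgeR estimate and bars of 1 standard error on each side, in black for the fit of groups and in purple with library kind as a covariate, and dotted lines at -1 and 1. In the fit of groups Tbpl2 has the 2 called changes, -2.34 at day 10 against day 6 and 2.28 at day 6 against IVV.

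Whether the NT-4 difference at day 10 departs from that at day 6 was tested as an interaction, and none of the 7 genes was called, beside 6.37% of all genes. The interaction of Tbpl2 was -1.54 (SE 1.503). In the fit of groups over all 15 libraries no adjusted p of the 7 genes was under 0.05 in the 6 comparisons or the interaction, the 2 unadjusted P under 0.05 were those of Tbpl2, and DESeq2's Wald test gave 1 adjusted p under 0.05. These values are on a scale whose median over all genes was -0.20 and -0.19 for IVG and IVG-NT day 10 against IVV, 0.01 and -0.27 for NT-4 at day 10 and day 6, 0.21 for day 10 against day 6 and -0.37 for day 6 against IVV. DESeq2's size factors moved those medians to -0.39, -0.36, 0.02, 0.0033, 0.02 and -0.35, and turned the sign of the changes that were near 0 for Nobox and Taf4b with NT-4 at day 6 and for Tbpl2 in IVG-NT day 10 against IVV.

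Of 15 genes reported to act downstream of NOBOX, LHX8, SOHLH1 and FIGLA, 1 was called in the 6 comparisons and the interaction, between the days, beside 10.4% of all genes there. It was Zp2, a zona pellucida protein gene, which fell by 1.03 on the log2 scale at day 10 against day 6 (SE 0.42, adjusted p = 0.399). Its level was 1455, 1552 and 501 in IVG and 1176, 793 and 344 in IVG-NT oocytes at day 6, and 589, 501 and 340.2 in IVG and 688, 435 and 237 in IVG-NT oocytes at day 10. The days overlapped through the rRNA-poor day 6 libraries, and without IVG-NT day 6 replicates 1 and 2 the change was -0.50. That setting included, the call was lost in 9 other settings. With library kind as a covariate, 3 of the 15 were called lower for NT-4 at day 6, 1 higher at day 10 than at day 6 and 1 higher in the interaction. None of these had an adjusted p under 0.05. That fit called 13.6% of all genes between the days. For NT-4 at day 6 and the interaction, shares are given only for the fit of groups, 11.6% and 6.37%, so those counts are not read as a result about the list. The list's median log2 fold change was -0.03 between the days and 0.02 and 0.10 for IVG and IVG-NT day 10 against IVV, beside medians of 0.21, -0.20 and -0.19 over all genes.

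The E proteins that pair with FIGLA and other bHLH factors were furthest from the other libraries in IVG-NT day 6 replicates 1 and 2, as were Lhx8 and Tbpl2 in replicate 2. Of the 3 genes, Tcf3 (log2 fold change 2.01, adjusted p = 0.421) and Tcf4 (3.42, adjusted p = 0.381) were called higher in IVG-NT than in IVG at day 6, where 11.6% of all genes were called. Tcf3 stood at 25.5 and 12.5 and Tcf4 at 5.87 and 3.66 in IVG-NT day 6 replicates 1 and 2, beside 0.959 to 7.96 for Tcf3 and 0.143 to 0.945 for Tcf4 in the other 13 libraries. Tcf12 was at 0 counts in those 2 libraries and had counts in the other 13. Without both libraries the changes were -0.08 for Tcf3 and -0.84 for Tcf4. The call of Tcf3 was also lost in 7 settings that kept its sign. The interaction of Tcf4, -3.24 (adjusted p = 0.755), was also a call, beside 6.37% of all genes.

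Of the 11 LIM homeobox and LIM cofactor genes that passed the filter, the relatives and partners of Lhx8, 3 were called in some comparison and all were sparse. None of the 3 had an adjusted p under 0.05, and the comparisons that called them called 1.24% to 11.6% of all genes. Lhx6, at 0 to 35 counts, was called lower in IVG-NT day 10 than in IVV and in IVG and lower at day 6 than in IVV, being at 0 in those 9 libraries. Isl1, at 0 to 219 counts, was called higher in IVG-NT than in IVG at day 6, and Lmx1a, at 0 to 110 counts, lower at day 6 than in IVV, with a call in the interaction. Of 11 other oocyte transcription factors tested, 1 was called higher at day 10 than in IVV, where 2.76% (IVG) and 3.29% (IVG-NT) of all genes were called. It was Zfp57, which keeps imprints methylated, at 3.14 in IVG and 3.56 in IVG-NT oocytes with an adjusted p of 1 for both. Its level was 14.6, 47.8 and 7.82 in IVV, 306, 244 and 67.1 in IVG day 10 and 402, 407 and 21.2 in IVG-NT day 10, so IVG lay wholly above IVV, groups that did not overlap for 11.9% of genes, and IVG-NT overlapped it through its rRNA-poor library. Both calls were lost without IVV replicate 2 or 4. Those settings included, the IVG call was lost in 5 other settings and the IVG-NT call in 4.

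The genes whose profile over the 15 libraries lay closest to each factor were taken by the root mean square (RMS) difference of their centred log2 CPM, which shares library depth and kind across genes and carries no test. Closest to Figla was Cox7b at an RMS of 0.26, followed by Pfdn5 at 0.35, where the median over all genes was 2.36. Taf4b had Akap1 (0.23) and Hsp90b1 (0.35), Nobox had Mest (0.32), and Lhx8 had Pcf11 (0.33) and Aass (0.34). Tbpl2 had Gtf2e2 (0.58) and Ppp1cc (0.59) and Sohlh2 had Cyb5d2 (0.74) and Phf19 (0.86), all at a greater distance. Sohlh1, with counts in 5 libraries, had Gm39325 (0.84) and Gm17084 (0.85). A flat profile lay at 0.63 from Nobox and at 1.47 from Figla, so the neighbours of Figla are the closer ones relative to its own spread.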

How the data were processed

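RNA of pools of 6 oocytes was amplified with SMART-Seq2 from an oligo(dT) primer and sequenced in paired ends. The authors discarded reads with adaptors or a quality under 20, mapped the others with HISAT2 to mm10 and deposited raw counts per library and Ensembl gene, not normalized. The counting tool and annotation release are not given in the sources used here. Groups and replicate numbers came from the sample titles, where the IVV libraries carry 2, 3 and 4. Of 55401 identifiers, 99.5% had a symbol in GENCODE vM21.

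The fits used edgeR 4.0.16 in R 4.3.3 (filterByExpr, minimum count 10, leaving 21009 genes; TMM; quasi-likelihood test; 1 fit of 5 group means over 15 libraries), with limma 3.58.1 and DESeq2 1.42.0 beside it, and Python 3.11.15 with SciPy 1.17.1. A call is a log2 fold change beyond 1 with an unadjusted P under 0.05, the rule of the study's methods; Benjamini-Hochberg adjusted p-values cover all genes tested. Normalized FPKM divides TMM-normalized CPM by the kilobases of merged exons. Log values for profiles used a prior count of 2. Scripts were tested on simulated data. Promoter windows came from RefSeq (GRCm38.p6); 6 of the 7 genes have one printed or searched here.

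The genes and lists were chosen with earlier results of these data known. Named were the 7 genes, list members past the call rule, and the 2 genes closest to each factor's profile, of which 1 is not reported here. The limit of 5% that separates rRNA-rich from rRNA-poor libraries was chosen with the shares in view. Alternatives were DESeq2's test and size factors, no filter, only the compared groups, library kind as a covariate, rRNA-rich libraries only, a replicate block and each library left out; leaving out IVG-NT day 6 replicates 1 and 2, with and without the covariate, was added after seeing the data. Same-numbered IVG and IVG-NT libraries at day 10 deviated together (correlations 0.370, 0.413 and 0.732), as did those of IVG day 6 with IVG day 10 (0.230, 0.147 and 0.538) and with IVG-NT day 10 (0.208, 0.193 and 0.573). Those of IVG-NT day 6 with the other 3 groups ran from 0.0663 to 0.328 and were not all over 0.1. The IVV libraries share 2 numbers with the cultured groups, and there the correlations were -0.0995 to -0.522, each between an rRNA-rich and an rRNA-poor library. Same-numbered cultured libraries were always of the same kind. A shared experiment and a shared kind of library therefore cannot be told apart by these correlations, and libraries of unlike number were not compared between groups.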

Additional observations from a re-analysis of the deposited data

How the results depend on the processing

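The number of genes called changed with the setting. Of the 7 genes, 1 was called between the days in the reported fit, 0 under the replicate block and 2 with DESeq2's Wald test. With library kind as a covariate 3 were called, 1 of them Sohlh1, which was at 0 in most libraries. When 1 library was left out, 0 to 2 were called. Of all genes, 10.4% were called between the days in the reported fit and 13.6% with the covariate. At day 6 against IVV these shares were 7.9% and 9.02%. No share is given for the other settings, so the counts here are not read as a result about the 7 genes. Against IVV at day 6, 1 was called, 0 with no filter, only the compared groups, the covariate, rRNA-rich libraries only or the replicate block, 2 with DESeq2's test, with its size factors or without both IVG-NT day 6 libraries (with or without the covariate), and 0 to 2 without 1 library. For NT-4 at day 6, 0 were called, 1 with DESeq2's test, its size factors or rRNA-rich libraries only, and 0 to 2 without 1 library. For the interaction 0 were called with the covariate alone and 1 in rRNA-rich libraries only. With the covariate and without both IVG-NT day 6 libraries, which leaves that group 1 library, the interaction of Figla was 1.13. When 1 library was left out, 0 to 1 were called, as for IVG-NT day 10 against IVV. The replicate block gave Tbpl2 -1.80 between the days and 2.41 at day 6 against IVV, and moved no other count. Which numbers share an experiment is not named, and in the cultured groups the numbers go with the kind of library. Whether the block removes an experiment or the kind of library therefore cannot be told. For IVG-NT against IVG at day 10 the block changed no call. The cause of these shifts was not tested.

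Signs turned as follows, on the log2 scale. With DESeq2's test, Tbpl2 in IVG-NT day 10 against IVV was -0.043, and Nobox and Taf4b for NT-4 at day 6 were 0.082 and 0.42; with its size factors in edgeR they were -0.043, 0.082 and 0.42. With the covariate, Figla was 0.090 in IVG-NT day 10 and 1.18 at day 6 against IVV. With the covariate and without both IVG-NT day 6 libraries, NT-4 at day 6 gave 0.60 for Nobox, 0.59 for Lhx8, -0.25 for Sohlh2, -0.92 for Figla and -1.16 for Tcf4, and Lhx8 was -0.53 between the days and Figla 0.19 at day 6 against IVV. Without both libraries alone, Sohlh2 (-0.18), Tcf3 (-0.080) and Tcf4 (-0.84) turned for NT-4 at day 6, Lhx8 (-0.13) between the days and Taf4b (-0.15) at day 6 against IVV. With only the compared groups, Taf4b was 0.092 in IVG day 10 against IVV and 0.012 for NT-4 at day 6. In rRNA-rich libraries, Tbpl2 was 0.32 in IVG and Figla 0.087 in IVG-NT day 10 against IVV, Nobox 0.18 between the days, and Lhx8 -0.46, Figla 1.65 and Taf4b -0.044 at day 6 against IVV. Under the replicate block, Tbpl2 was 0.30 in IVG day 10 and Taf4b -0.28 at day 6 against IVV.

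Leaving out 1 library moved Figla from -1.78 to 2.24 (NT-4, day 10), from -0.072 to 1.92 (NT-4, day 6), from -2.50 to 0.038 (IVG-NT day 10 against IVV), from -1.50 to 0.31 (between the days) and from -0.88 to 0.30 (day 6 against IVV). It moved Taf4b from -0.37 to 0.79 and from -0.87 to 0.38 (IVG and IVG-NT day 10 against IVV) and from -0.45 to 0.28 (NT-4, day 6), and Tbpl2 from -0.55 to 2.54 (NT-4, day 6) and from -0.12 to 0.36 (IVG-NT day 10 against IVV). Lhx8 ran from -0.41 to 0.24 (NT-4, day 10) and from -0.36 to 0.49 (day 6 against IVV), Nobox from -0.18 to 0.39 (NT-4, day 10) and from -0.20 to 0.13 (between the days), and Sohlh2 from -1.16 to 1.54 (NT-4, day 6) and from -0.082 to 1.36 (day 6 against IVV). Groups of 3 pools and the shallow IVG-NT day 6 libraries limit these values.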
